A study of Mus musculus with 4 samples.

Results

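The 50 genes described here drive or carry out the cell cycle in mammalian cells. They were chosen by name for their known function, with earlier results of these data known. They comprised 5 regulators of entry into DNA synthesis (the G1/S step), 14 genes of DNA replication and nucleotide supply, and 31 genes of G2 and mitosis, the division itself. All 50 were found by their gene name among the 34761 named genes of the arrays, 35 through 1 probe and 15 through several, for 70 probes in all. The arrays held RNA from whole liver of male C57BL/6 mice, a common inbred laboratory strain, that were 5 weeks old at the start and ate a diet high in fat and sucrose (HFHS). The 4 groups were 0, 5, 10 and 15 weeks on that diet, at ages of 5, 10, 15 and 20 weeks, with 1 array each. The series text mentions 4 mice per time point, and whether an array held the RNA of 1 mouse or of a pool is not stated. Age and time on the diet rose together, and a control diet at matched ages is not analysed here, so their contributions cannot be told apart.

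A cell divides by passing through ordered phases. Cyclins of the D and E type, bound to their kinases, free E2F transcription factors from the retinoblastoma protein, and E2F then turns on the genes for DNA synthesis. The MCM helicase is loaded on origins by Cdc6 and Cdt1 and opens the double helix, PCNA clamps the polymerase to its template, and ribonucleotide reductase, thymidylate synthase and thymidine kinase supply nucleotides. Cyclin A and cyclin B, with Cdk1, then drive mitosis, in which Plk1 and the Aurora kinases build the spindle, the checkpoint proteins Bub1, Bub1b, Mad2l1 and Ttk hold anaphase back, and Cdc20 with Ube2c marks cyclin B for destruction. Mitotic genes are known to be repressed in resting cells by the DREAM complex and activated by B-Myb and Foxm1 through a promoter element called the CHR, with CCAAT boxes beside it, whereas replication genes are known more for E2F sites. In adult liver most hepatocytes rest in G0 and re-enter the cycle after injury or loss of tissue, while the liver of a young mouse still grows, and macrophages, lymphocytes and stellate cells in the tissue can divide as well.

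Values are scaled signals, that is, the processed fluorescence of a spot divided by the 75th percentile of its own array, so that 1 is the signal of a fairly bright probe. The 75th percentiles lay between 193.7 and 271.6 intensity units, and 44.5% to 48.3% of the spots were well above background. A probe that was not had only an upper bound, and a difference against it was computed from the higher of its own signal and a floor. The floor is the lowest signal among probes above background on that array and was 0.0580 to 0.0919 on the scaled signal. Such differences are written as at least N-fold. A difference was counted from 2-fold upward, and because each time point had 1 array it has no replicate check, no SD over samples and no p-value. Spots of a repeated probe above background differed on the same array by a median SD of 0.0646 to 0.0743 on the log2 scale. For repeated probes that were dim, the median SD was 0.2319 to 0.3793. Both describe the printing and scanning error alone. Every comparison with 0 weeks rests on the same 0-week array, so these comparisons are not independent of each other. All arrays were on 1 slide and were scanned together.

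Most of the mitotic genes were higher on the 15-week array than on the 0-week array, by up to 13.3-fold for Cdc20. The G1/S regulators Ccnd1, Ccnd2 and E2f1 were higher as well, by 2.34-fold to 5.63-fold. Of the replication genes, only Mcm2 and Mcm5 were at least 2-fold higher. The difference between the groups already showed in detection. Among the 31 mitotic members, 13 were above background at 0 weeks, 18 at 5 weeks, 20 at 10 weeks and 25 at 15 weeks. Of the 14 replication members, 13, 11, 11 and 12 were above background on these arrays. Over all 50 members the counts were 30, 33, 35 and 42, and over all named genes they were 18068, 17887, 18027 and 19232. In all, 26 members were above background on every array, 18 on some and 6 on none.

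**Figure D1:**
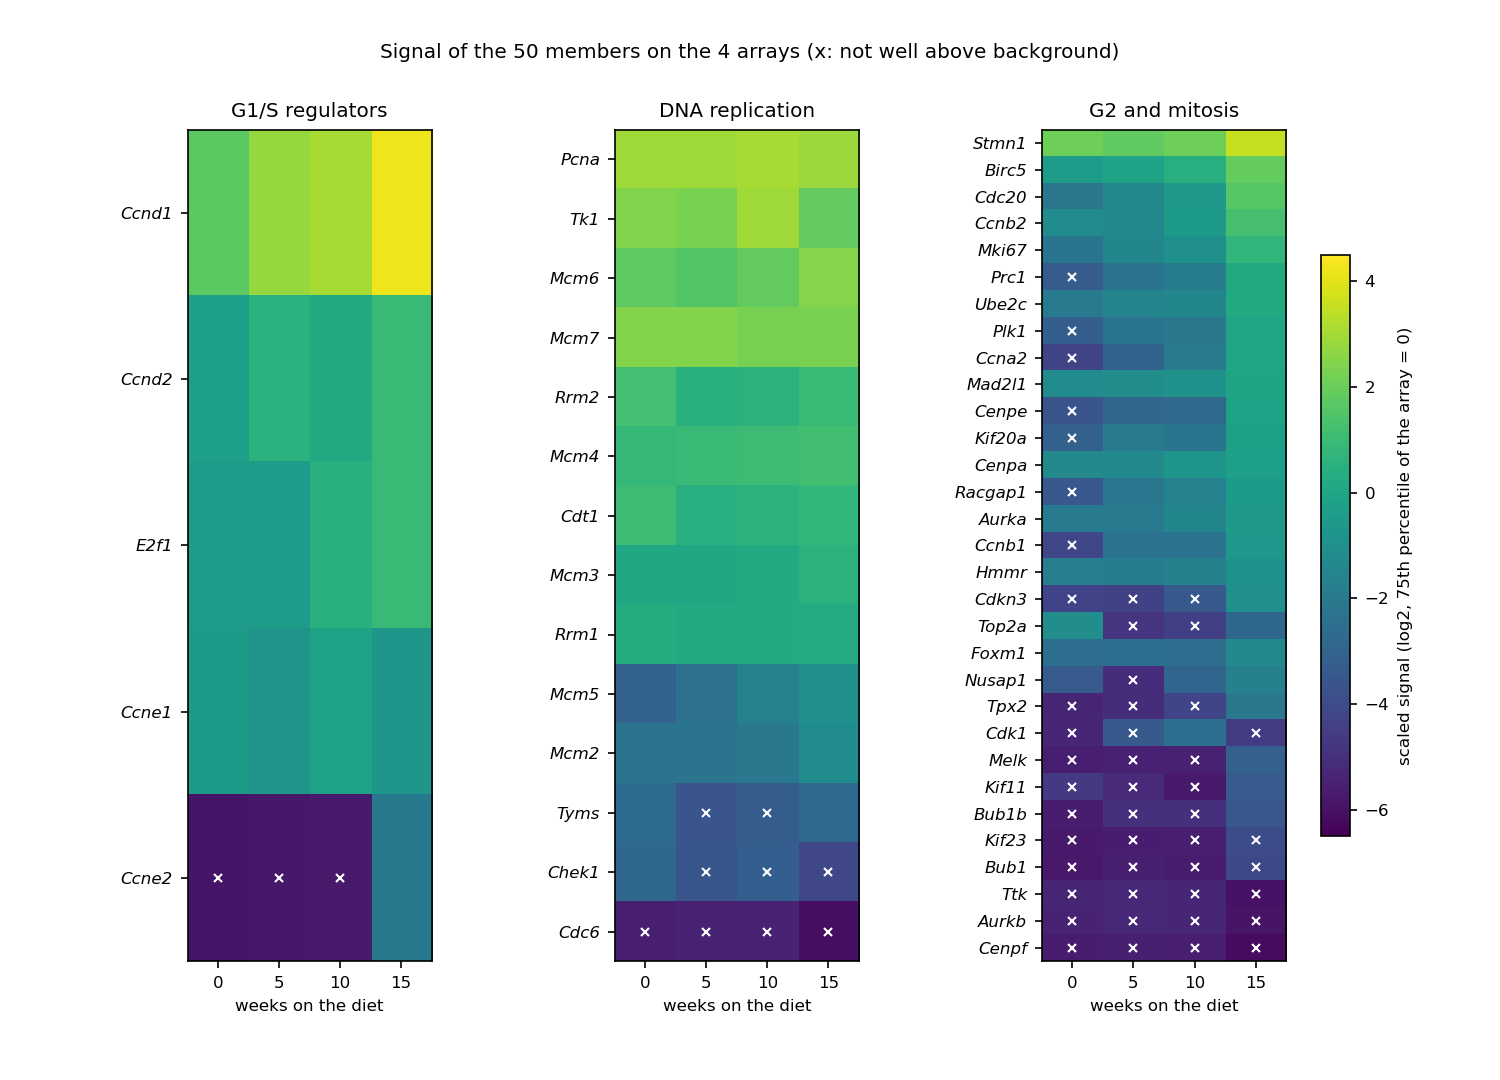
Scaled signal (log2, colour) of the 50 members on the 4 arrays, with time on the diet in weeks on the x axis and a cross where the probe was not well above background. The mitotic members, of which 13 were above background at 0 weeks and 25 at 15 weeks, brighten mainly in the 15-week column, whereas among the replication members Mcm2 and Mcm5 alone end at least 2-fold above and Chek1 falls below background.

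Ccnd1, the cyclin D1 that couples growth signals to the start of the cycle, was the brightest G1/S member. Its scaled signal was 3.28 at 0 weeks, 6.74 at 5 weeks, 8.27 at 10 weeks and 18.4 at 15 weeks, read by a probe at chr7:152116202-152116261 (mm9). It was higher on each later array, 2.06-fold, 2.52-fold and 5.63-fold above the 0-week array. Ccnd2, a second D-type cyclin, had signals of 0.821, 1.46, 1.12 and 1.92 in the same order, with its highest value at 15 weeks, 2.34-fold above 0 weeks. E2f1, the transcription factor released by these cyclins, stood at 0.719 and 0.726 at 0 and 5 weeks and at 1.41 and 1.86 at 10 and 15 weeks. Its 2 later arrays lay above its 2 earlier ones, with 1.96-fold at 10 weeks and 2.59-fold at 15 weeks. The E-type cyclins, which act next, did not follow a single course. Ccne1 stayed between 0.565 and 0.900 with no order by time, and at 15 weeks it was 1.11-fold lower than at 0 weeks, a sign that turned with spike-in scaling (log2 difference 0.36) or when the percentile was taken over detected probes (0.05). A second Ccne1 probe was above background on no array. Ccne2 was above background at 15 weeks alone, with a signal of 0.241, at least 2.90-fold higher than at 0 weeks.

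The 6 subunits of the MCM helicase, which act as a ring, differed from each other. Mcm5 was dim at first and had scaled signals of 0.123, 0.195, 0.329 and 0.509 at 0, 5, 10 and 15 weeks. It was higher on each later array, by 1.59-fold, 2.67-fold and 4.14-fold against 0 weeks. Mcm2 stood at 0.210, 0.208 and 0.234 on the first 3 arrays and at 0.454 at 15 weeks, 2.16-fold above 0 weeks, so that only its last array stood apart. Mcm6 went from 3.43 to 5.65 (1.65-fold), Mcm3 from 1.06 to 1.46 (1.37-fold) and Mcm4 from 1.77 to 2.26 (1.27-fold) between 0 and 15 weeks, all below the 2-fold limit. Mcm7 read 5.51, 5.43, 4.71 and 4.86 and was 1.13-fold lower at 15 than at 0 weeks, a sign that turned with the same scalings (0.33 and 0.02). Under the normexp background correction the log2 differences of Mcm2 and Mcm5 at 15 weeks were 0.53 and 0.83, short of 2-fold. The subunits with the lowest signals thus showed the largest differences, but signals of different probes cannot be compared as amounts of RNA.

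None of the remaining replication members was 2-fold higher than at 0 weeks on any array. Pcna, the sliding clamp, stayed between 7.09 and 8.35, and Rrm1, the large subunit of ribonucleotide reductase, between 1.17 and 1.23. Rrm2, the small subunit whose level follows the cycle, had its highest signal at 0 weeks, with 2.29, 1.40, 1.47 and 1.86, and was 1.64-fold lower at 5 weeks. Cdt1, the loading factor of the helicase, had the same shape, with 2.09, 1.32, 1.53 and 1.70. Neither reached 2-fold against 0 weeks on any array, and at 15 weeks the signs of Pcna, Rrm1, Rrm2, Cdt1 and Tyms turned with spike-in scaling (log2 differences of 0.21 to 0.50). The signs of Pcna, Rrm1 and Tyms also turned with the percentile over detected probes, and that of Rrm1 with the array median. Tk1, the thymidine kinase, read 5.27, 4.83, 7.73 and 3.66, so its 10-week array was the highest and its 15-week array the lowest, 2.11-fold apart. A second Tk1 probe was also highest at 10 and lowest at 15 weeks, and the third was above background on no array. Tyms, the thymidylate synthase, was 0.161 at 0 weeks and 0.149 at 15 weeks and was not above background in between. Chek1, the kinase that guards stalled replication forks, was above background at 0 weeks alone, with 0.146, and was at least 2.52-fold lower at 15 weeks. Cdc6 was above background on no array.

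Mitotic members above background on every array gave the clearest picture. Cdc20, the activator of the anaphase-promoting complex (probe at chr4:118105534-118105593, mm9), had scaled signals of 0.228, 0.429, 0.690 and 3.03 at 0, 5, 10 and 15 weeks. Each array was above the one before, and the last step, 4.40-fold from 10 to 15 weeks, was the widest. Mki67, whose protein Ki-67 coats mitotic chromosomes and is the usual stain for dividing cells (chr7:142884764-142884823, mm9), read 0.212, 0.365, 0.510 and 1.69. That amounted to 1.72-fold, 2.40-fold and 7.95-fold against 0 weeks. A second Mki67 probe gave a log2 difference of 3.38 for 15 against 0 weeks beside 2.99 for the probe used. Ccnb2, a B-type cyclin (chr9:70255671-70255730, mm9), had 0.434, 0.392, 0.705 and 2.39, so its first 2 arrays were alike and its last was 5.51-fold above the first. Birc5, the survivin subunit of the chromosomal passenger complex, read 0.754, 0.900, 1.32 and 3.69, a difference of 4.90-fold at 15 weeks. A second Birc5 probe was above background at 10 and 15 weeks alone, at least 4.31-fold higher at 15 than at 0 weeks. The third was above background on no array. Ube2c, the ubiquitin-conjugating enzyme that works with Cdc20, went from 0.258 through 0.349 and 0.361 to 1.14, 4.41-fold above 0 weeks.

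Smaller differences of the same sign were seen in other parts of the mitotic machinery. Stmn1, a protein that destabilises microtubules, was the brightest mitotic member and read 4.18, 3.51, 4.26 and 11.7, with the 15-week array alone apart at 2.80-fold. A second Stmn1 probe gave a log2 difference of 1.05 beside 1.49 for the probe used, whose sequence shares a stretch with 1 other probe of the array. Aurka, the Aurora kinase of the spindle poles, read 0.262, 0.258, 0.364 and 0.677, 2.59-fold higher at 15 than at 0 weeks. Foxm1, the transcription factor of the mitotic genes, stood between 0.169 and 0.180 on the first 3 arrays and at 0.407 on the last, 2.35-fold above 0 weeks. A second Foxm1 probe was above background on no array. Mad2l1, of the spindle checkpoint, read 0.437, 0.485, 0.542 and 0.954, a 2.18-fold difference. The other 2 Mad2l1 probes were above background at 10 and 15 weeks alone, with bounds of 1.05-fold and 1.20-fold at 15 against 0 weeks, and both were lower at 15 than at 10 weeks, by 1.35-fold and 1.17-fold. Cenpa, the histone variant that marks centromeres, and Hmmr, a spindle protein and hyaluronan receptor, stayed just under the limit at 1.997-fold and 1.88-fold. With normexp the log2 differences of Aurka, Foxm1 and Mad2l1 were 0.72, 0.49 and 0.78, short of 2-fold. Nusap1, which bundles spindle microtubules, read 0.0975 at 0 weeks, was not above background at 5 weeks, and read 0.133 and 0.302 at 10 and 15 weeks, 3.09-fold above 0 weeks at the end but short of 2-fold with normexp (log2 difference 0.43).

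A further set of mitotic genes was not above background at 0 weeks and well above it at 15 weeks. Ccna2, the cyclin A of S phase and early mitosis, read 0.122, 0.250 and 0.971 at 5, 10 and 15 weeks, at least 11.7-fold higher at 15 weeks than at 0 weeks. Prc1, which crosslinks the microtubules of the central spindle, read 0.208, 0.283 and 1.15, at least 11.4-fold higher. Cenpe, the kinesin of the kinetochore, read 0.136, 0.152 and 0.922, at least 11.1-fold higher. For these 3 genes the 15-week array was above the 10-week array by 3.88-fold, 4.05-fold and 6.06-fold, with both arrays above background. Plk1, the polo kinase of mitotic entry, read 0.217, 0.224 and 1.01, and Ccnb1, the cyclin B that partners Cdk1, read 0.200, 0.203 and 0.643. Both were alike at 5 and 10 weeks and higher at 15 weeks, at least 9.45-fold and 7.73-fold above 0 weeks. Other Ccnb1 probes were above background at 15 weeks alone, with bounds of 1.11-fold and 1.94-fold. Racgap1, a GTPase regulator of cytokinesis, read 0.222, 0.327 and 0.703, at least 7.95-fold higher. Kif20a, a kinesin of the midzone, read 0.252, 0.216 and 0.847, at least 7.35-fold higher. Cdkn3, a phosphatase of cyclin-dependent kinases, and Tpx2, the activator of Aurka, were above background at 15 weeks alone, with 0.5001 and 0.225, at least 6.01-fold and 2.70-fold higher. A second Tpx2 probe was above background on no array. Bounds below 2-fold were found for other genes that appeared at 15 weeks alone, Melk with 1.37-fold, Kif11 with 1.18-fold and Bub1b with 1.05-fold.

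Not every mitotic gene followed this course. Cdk1, the kinase of mitosis, was above background only at 10 weeks, with 0.177 from the brightest of its 3 probes, at least 2.13-fold above 0 weeks. At 15 weeks it was again below background and at least 3.06-fold lower than at 10 weeks, while its cyclins Ccnb1 and Ccnb2 were highest there. Its other probes were above background on no array. Top2a, the topoisomerase that untangles sister chromatids, went the other way, with 0.479 at 0 weeks, signals below background at 5 and 10 weeks, and 0.142 at 15 weeks, 3.36-fold lower than at 0 weeks. The single Top2a spot lay, on the 0-week array, in a patch where 11 of 46 neighbouring spots were bright, meaning at least 4-fold above their median on the other 3 arrays, and without that spot the gene has no value at 0 weeks. The later arrays alone put Top2a at least 1.70-fold higher at 15 than at 10 weeks. Bub1, Aurkb, Cenpf, Kif23 and Ttk were above background on no array.

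Bub1, the checkpoint kinase of the kinetochore, was printed in 10 spots and so allowed a look at error within an array. After spots marked as outliers were left out, 9, 10, 7 and 9 spots remained at 0, 5, 10 and 15 weeks. Their mean log2 scaled signal was -5.73 ± 0.13, -5.53 ± 0.19, -5.65 ± 0.06 and -4.11 ± 0.43 (SD over spots of 1 array). The first 3 arrays lay close together and the 15-week spots lay above all kept spots of the other arrays. At 15 weeks 3 of the 9 kept spots were well above background, and none were on the other arrays. The gene still counted as not above background, because that took more than 50% of the kept spots. Bright neighbours reached the minimum of 5 for a locally bright spot at 1 Bub1 spot at 0 weeks, with 5 of 45, and at 1 spot at 15 weeks, with 6 of 44. The latter was among the outliers left out, and no other Bub1 spot reached the minimum.

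**Figure D2:**
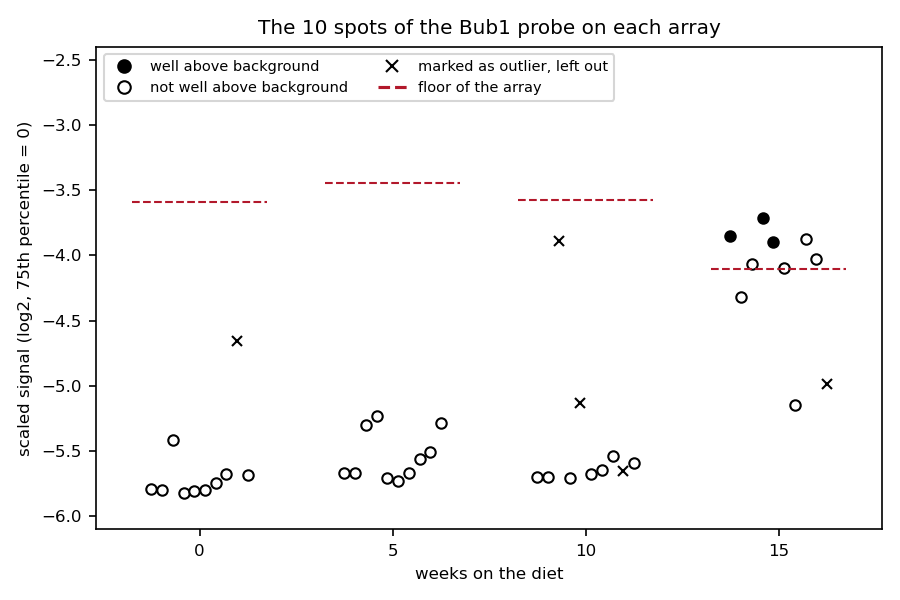
Log2 scaled signal of each of the 10 Bub1 spots against weeks on the diet, with spots well above background filled, outlier spots crossed and the floor of each array dashed. The kept spots at 15 weeks average -4.11 and those of the other arrays between -5.73 and -5.53, and 3 of the 15-week spots are well above background.

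For 15 against 0 weeks, 29 of the 50 members were above background on both arrays, and 15 of them were at least 2-fold higher and 1 was lower. Over the array, 17562 genes could be compared in this way, and 5.76% of them passed 2-fold upward and 5.03% downward. By role, 10 of the 13 mitotic members, 3 of the 4 G1/S members and 2 of the 12 replication members were higher, and the lower member was Top2a. A further 13 members were above background at 15 weeks and not at 0 weeks, 6 of them on no other array. Of the 13, 10 had a bound of at least 2-fold, 9 of them mitotic. Among all genes above background at 15 weeks and not at 0 weeks, 20.8% had such a bound. Of the genes dim at 0 weeks, 10.0% were above background at 15 weeks, against 13 of the 20 dim members. At 5 and 10 weeks 4.74% and 5.3% of such genes had appeared, against 7 and 8 of the 20. In the opposite direction Chek1 was the sole member above background at 0 weeks and not at 15 weeks. Of all such genes, 67.4% had a bound of at least 2-fold lower.

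The median log2 difference of all measured genes was -0.25 at 15 weeks, so medians are given relative to it. The mitotic members stood 1.74 above it, the G1/S members 1.55 and the replication members 0.19. Before this subtraction the replication median was -0.06. It took the other sign with scaling by the array median (0.01), spike-in spots (0.45), the percentile over detected probes (0.14) or quantile normalization (0.03). With normexp it stayed negative (-0.03). With a limit of 1.5-fold, 18 measured members were higher and 1 lower at 15 weeks, where 9.94% and 18.5% of all genes were. Against the median gene 17 of the 29 measured members were at least 2-fold higher. The share of all genes passing by that measure was not computed, so the count has no background to set beside it.

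**Figure D3:**
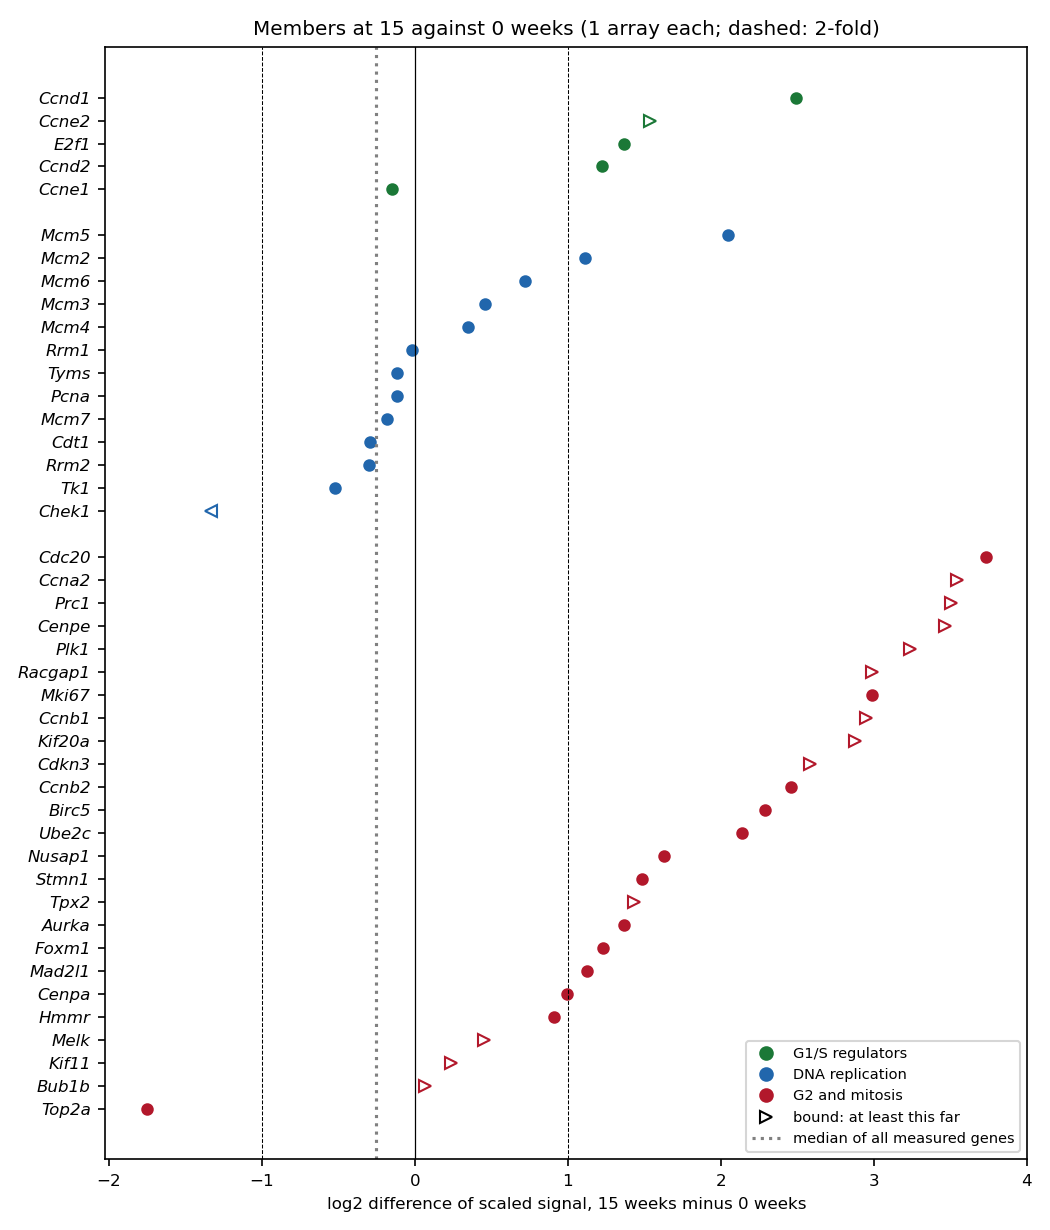
Log2 difference of scaled signal, 15 weeks minus 0 weeks (x axis), for each member with a value, grouped by role, with open triangles for bounds, dashed lines at 2-fold and a dotted line at the median of all measured genes (-0.25). Most mitotic members and 4 of the G1/S members lie right of the upper 2-fold line, whereas among replication members only Mcm5 and Mcm2 do.

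The earlier arrays showed less. At 5 weeks 26 members were measured on both arrays, and 1, Ccnd1, was at least 2-fold higher (log2 difference 1.04, and 0.98 with scaling by the array median) and none lower, against 2.3% of all genes higher and 1.57% lower. Of 7 members above background at 5 weeks and not at 0 weeks, 5 had a bound of at least 2-fold. Of all such genes, 30.2% did. The 5 members were Ccnb1, Plk1, Kif20a, Prc1 and Racgap1. At 10 weeks 4 of 27 measured members were higher, Ccnd1, Mcm5, Mki67 and Cdc20, of which Ccnd1 alone was with normexp, and none lower, against 2.92% and 1.53% of all genes. Bounds of at least 2-fold were found for 6 of 8 members above background at 10 weeks and not at 0 weeks. Of all such genes, 31.2% had them. In the lower direction the bounds at both times were those of Top2a, at least 5.21-fold and 5.71-fold, from the 0-week spot described above. Among all genes above background at 0 weeks and not at 5 weeks, 20.3% had such a bound. Of those above it at 0 weeks and not at 10 weeks, 27.4% did. With a limit of 1.5-fold, 5 members were higher and 2 lower at 5 weeks, where 6.63% and 5.45% of all genes were, and 8 were higher and 1 lower at 10 weeks, where 7.31% and 4.81% were. The median of the measured members relative to all genes was 0.01 at 5 weeks, 0.36 at 10 weeks and 1.36 at 15 weeks.

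The step from 10 to 15 weeks does not involve the 0-week array. Of 34 members measured on both of its arrays, 16 were at least 2-fold higher at 15 weeks and 1, Tk1, was lower, where 3.95% and 4.06% of all genes were. The 16 comprised 15 of 19 mitotic members and Ccnd1, and none of the 11 replication members. Of 8 members above background at 15 weeks and not at 10 weeks, 3 had a bound of at least 2-fold, where 18.5% of such genes did. In the lower direction Cdk1 was the sole member with a bound, where 79.1% of such genes had a bound of at least 2-fold. The mitotic median was 1.90 above that of all genes, which was -0.24, and the replication median 0.39 above it.

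Over the whole course, 19 of the 26 members above background on all arrays had their highest signal at 15 weeks, as 17.0% of all such genes did. These included all 11 mitotic members, 3 of 4 G1/S members and 5 of 11 replication members. A higher signal at every step was seen in 10 of the 26, Ccnd1, E2f1, Mcm4, Mcm5, Mki67, Cdc20, Birc5, Ube2c, Cenpa and (by the probe used) Mad2l1, and in 4.90% of all genes. Some of these steps were smaller than the error between spots, 0.0963 on the log2 scale. They were 0 to 5 weeks for E2f1 (0.01), Mcm4 (0.09) and Cenpa (0.09), and 5 to 10 weeks for Ube2c (0.05).

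The promoters of the members were read because the mitotic and replication genes parted in their values. RefSeq promoter sequences (GRCm38.p6, 250 bases before to 50 after the start of transcription) were found for 40 of the 50 members, and Ccnd1, Ccnd2, Ccne2, Mcm4, Ccna2, Kif20a, Aurkb, Tpx2, Foxm1 and Stmn1 were not matched. The stretches from 160 bases before the start to 30 after it are printed for 5 genes, 5′ to 3′ on the strand of the gene. Cdc20, Mki67 and Ccnb2 are shown as the mitotic genes with the largest differences among those above background on all arrays, Mcm5 as the replication gene with the largest, and Mcm6 as a replication gene of high signal and smaller difference. They lie at chr4:118437314-118437503 (minus strand), chr7:135716350-135716539 (minus), chr9:70421525-70421714 (minus), chr8:75109349-75109538 (plus) and chr1:128359676-128359865 (minus). Capitals mark the CHR (TTTGAA), the CCAAT box (CCAAT) and 4 forms of the E2F site (the letters TTCCCGC, the letters TTGGCGC, the letters TTCGCGC and the letters TTGCCGC), each searched on both strands, and E2F forms on opposite strands overlap in the longer runs.
Cdc20: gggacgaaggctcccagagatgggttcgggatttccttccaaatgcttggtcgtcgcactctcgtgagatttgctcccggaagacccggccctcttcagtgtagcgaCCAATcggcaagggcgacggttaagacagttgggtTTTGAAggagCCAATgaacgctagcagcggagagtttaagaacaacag
Mki67: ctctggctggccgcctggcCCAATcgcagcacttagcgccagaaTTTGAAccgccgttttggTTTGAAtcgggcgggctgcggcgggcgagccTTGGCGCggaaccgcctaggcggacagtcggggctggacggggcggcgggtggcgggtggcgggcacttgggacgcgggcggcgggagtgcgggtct
Ccnb2: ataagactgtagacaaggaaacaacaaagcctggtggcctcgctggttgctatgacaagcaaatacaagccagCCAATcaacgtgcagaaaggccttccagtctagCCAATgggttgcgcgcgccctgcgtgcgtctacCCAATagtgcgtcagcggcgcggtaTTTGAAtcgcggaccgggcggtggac
Mcm5: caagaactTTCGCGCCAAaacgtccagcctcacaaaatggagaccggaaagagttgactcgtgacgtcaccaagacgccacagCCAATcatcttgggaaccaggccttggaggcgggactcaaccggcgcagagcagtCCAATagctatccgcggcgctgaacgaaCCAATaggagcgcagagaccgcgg
Mcm6: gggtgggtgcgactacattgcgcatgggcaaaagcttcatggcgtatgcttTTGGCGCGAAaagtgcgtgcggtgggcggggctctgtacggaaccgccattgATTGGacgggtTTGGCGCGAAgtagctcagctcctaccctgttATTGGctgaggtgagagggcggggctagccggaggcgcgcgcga

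In these windows the 3 mitotic genes carried the CHR and the 2 replication genes did not, while Mcm5, Mcm6 and also Mki67 carried E2F forms. Over whole promoters, the CHR letters were found in 18 of 25 mitotic members (72.0%), in 1 of 13 replication members, which was Mcm2, in neither of the 2 matched G1/S members, and in 20.2% of all 27025 genes with a promoter. Of the 23 CHR matches in mitotic members, 19 lay within 100 bases of the start. CCAAT was found in 21 of 25 mitotic members (84.0%), 8 of 13 replication members (61.5%) and 41.1% of all genes. An E2F form was found in 9 of 13 replication members (69.2%), 4 of 25 mitotic members (16.0%) and 10.9% of all genes. Of these 25 mitotic members, 14 were at least 2-fold higher or had such a bound at 15 weeks, 9 of them with the CHR. Of the other 11, 9 carried it. Whether the CHR follows the size of the difference cannot be read from these counts, because few of the other 11 had a measured small difference. Bub1, Cdk1, Cenpf, Kif23 and Ttk were dim on both arrays compared, and Bub1b, Kif11 and Melk had bounds alone. Top2a rested on the spot in a bright patch, and Cenpa and Hmmr lay just under 2-fold. Among all 119 matches, 3 pairs of different motifs overlapped. A match describes these letters only and does not show that a factor binds there.

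**Figure D4:**
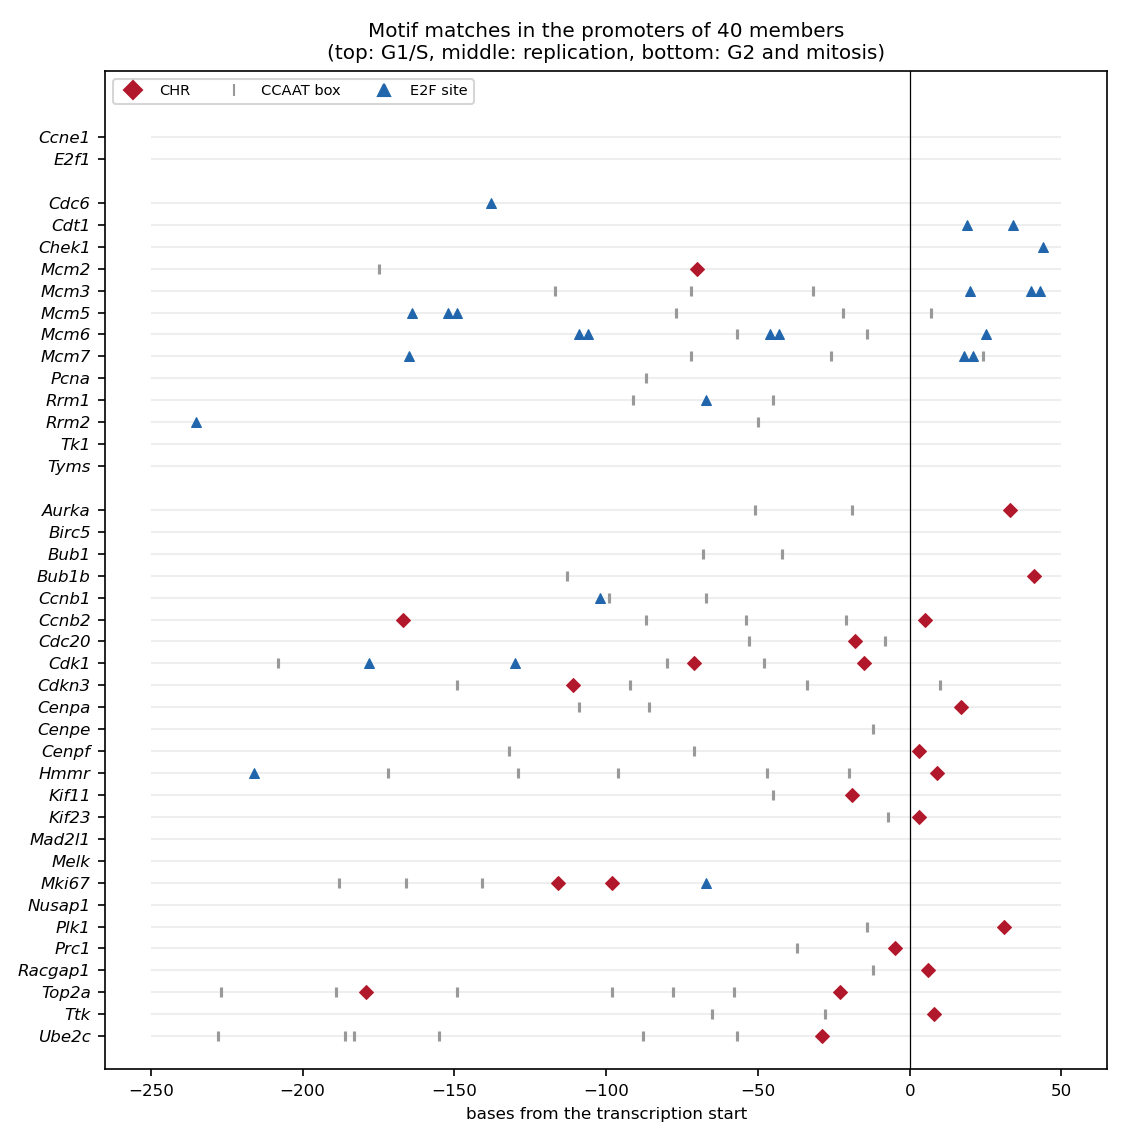
Position of each motif match in the promoters of the 40 matched members, in bases from the start of transcription (x axis, start at 0), with G1/S members on top, replication members in the middle and mitotic members below. Diamonds (CHR) lie mostly within 100 bases of the start in mitotic genes, 18 of 25 of which hold one, and triangles (E2F forms) lie mostly in replication genes, 9 of 13 of which hold one.

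Other genes of the pathway were compared in the same way for 15 against 0 weeks. Their lists follow known function but were chosen with earlier results of these data known. Of 29 measured other mitotic genes, 9 passed 2-fold upward and 2 downward, where 5.76% and 5.03% of all genes did. Their median was 0.83 above that of all genes on the log2 scale. A further 18 were above background at 15 weeks and not at 0 weeks, and 4 of them had a bound of at least 2-fold. That is near the 20.8% of all such genes. Of 29 measured other replication genes 1 was higher and 1 lower (median 0.21 above), and of 20 measured other G1/S genes 2 were higher and 1 lower (0.34 above). The larger median of mitotic genes was thus seen outside the 50 members too, but on the same arrays, so it is no independent check. Of the 65 other mitotic genes, 18 were above background on neither array. Sgol1, the guardian of centromere cohesion, was 4.41-fold higher, Ect2, the exchange factor of cytokinesis, 4.23-fold, and Anln, a scaffold of the contractile ring, 2.81-fold. Sgol1 was dim at 0 weeks (0.100) and not above background at 5 and 10 weeks. Anln was not above background at 10 weeks, and its spot had up to 4 bright neighbours. Pkmyt1, an inhibitory kinase of Cdk1, was 3.93-fold higher, with 0.237, 0.298, 0.325 and 0.932 over the 4 arrays. Cdca3 and Cdca8, the latter a partner of Birc5, were 3.41-fold and 2.999-fold higher. Gins2, a part of the replicative helicase, was 3.25-fold higher and was the sole replication gene of this list measured on both arrays to pass 2-fold upward. Uhrf1, a factor that keeps DNA methylation through replication, and Pola2, a subunit of the primase complex, were not above background at 0 weeks and were at least 5.29-fold and 2.22-fold higher. The growth regulators Myc and Mycn were 2.76-fold and 2.80-fold higher. Cdc25c, the phosphatase that activates Cdk1, was 2.85-fold lower at 15 weeks, and at 5 and 10 weeks it was below background. Like Top2a it was bright at 0 weeks, and its spot had up to 4 bright neighbours. Genes at locally bright spots were kept out of this choice, among them Tfdp2, an E2F partner, 19.2-fold lower (up to 19 bright neighbours), and Cdca5, a cohesin regulator, 5.35-fold higher (up to 7), both further from 0 weeks than the genes named. The other lower genes of these lists, named after their values were seen, were Gmnn, an inhibitor of Cdt1, at 2.60-fold and Cenpm, of the centromere, at 2.09-fold.

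Inhibitors of cyclin-dependent kinases hold the cycle back. Cdkn1a, the p21 protein, read 10.71, 4.09, 2.76 and 12.7 at 0, 5, 10 and 15 weeks. Its first and last arrays were alike and its middle arrays lower, 2.62-fold at 5 and 3.88-fold at 10 weeks against 0 weeks. Cdkn2a, the locus of p16 and Arf, was not above background at 0 and 5 weeks and read 0.154 and 0.214 at 10 and 15 weeks, at least 2.57-fold above 0 weeks at the end. Cdkn2b, the p15 protein, was above background at 15 weeks alone, with 0.168, at least 2.02-fold higher. The inhibitors p27 (Cdkn1b, 3.31 to 3.64), p57 (Cdkn1c, 1.31 to 1.49), p18 (Cdkn2c, 0.734 to 1.16) and p19 (Cdkn2d, 1.52 to 1.77) stayed within 2-fold across all arrays.

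Markers of other cell types moved on the same arrays. The tissue label was checked with 12 hepatocyte markers, all of which were above background on every array. Their summed scaled signal was 12292, 10441, 11360 and 7492 at 0, 5, 10 and 15 weeks, with 3 of 12 at least 2-fold lower at 15 than at 0 weeks. The summed signal of 14 macrophage markers was 133, 241, 279 and 342, and 10 of the 14 were at least 2-fold higher at 15 weeks, with a median 1.89 above that of all genes. Markers of recruited macrophages summed to 11.7, 14.6, 14.3 and 53.6, and 5 of 6 measured were higher. Stellate cell markers summed to 164, 182, 131 and 282, with 5 of 10 higher and 1 lower. Among T and NK cell markers 2 of 7 measured were higher, with sums of 7.09, 7.73, 12.3 and 9.14, and Cd8a was above background on no array. Neutrophil markers summed to 4.004, 5.99, 10.3 and 9.63 with 2 of 5 higher, and Ngp and Mpo were above background on no array. B cell markers summed to 1.36, 1.65, 2.39 and 2.25, with none of 4 measured at least 2-fold different and Blk above background on no array.

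Endothelial markers summed to 86.5, 102, 96.7 and 70.9, and none of 9 differed by 2-fold. Bile duct markers summed to 17.7, 15.1, 4.66 and 18.6, with 2 of 8 measured higher and 2 lower at 15 weeks and 1 higher and 4 lower at 5 weeks. The higher marker at 5 weeks was Krt7, whose signal of 7.96 made up much of that sum, and its spot had up to 8 bright neighbours. From 10 to 15 weeks, the step in which 15 of 19 mitotic members were at least 2-fold higher, so were 6 of 6 recruited macrophage, 7 of 8 bile duct, 6 of 10 stellate and 3 of 14 macrophage markers. Over all genes measured in that step 3.95% were. Spp1 is counted in both the recruited macrophage and the bile duct list. The part of these cell types in the members' values was not tested. In whole liver, fewer cells of a type and less RNA per cell cannot be told apart, so a higher mitotic signal does not say which cells it came from.

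**Figure D5:**
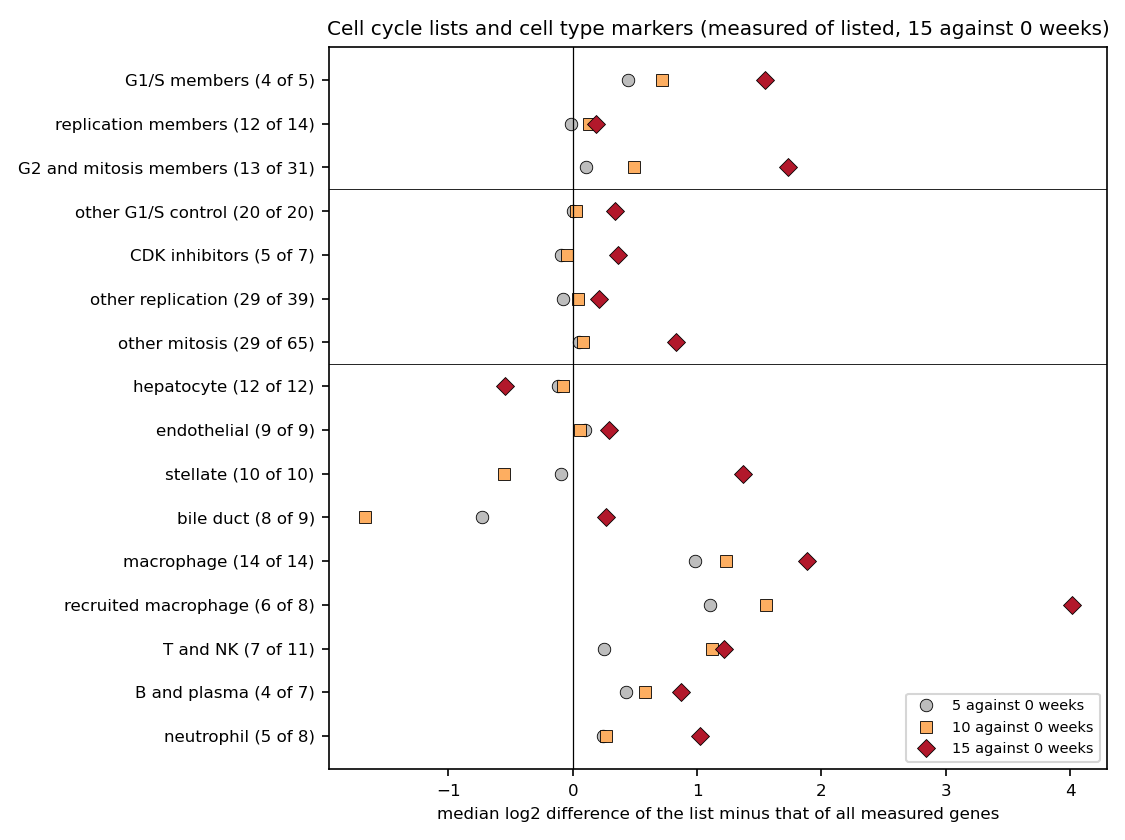
Median log2 difference against 0 weeks of each gene list, minus the median of all measured genes (x axis), at 5, 10 and 15 weeks. Brackets give how many genes were measured for 15 against 0 weeks, out of the listed genes found on the array. At 15 weeks the G1/S and mitotic members stand at 1.55 and 1.74, the replication members at 0.19, the macrophage markers at 1.89 and the hepatocyte markers at -0.54.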

How the data were processed

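RNA from whole liver was measured on 4 Agilent 1-colour arrays, 1 per time point. The scanner files, per the file headers made with Agilent Feature Extraction 10.7.3.1, give the background-subtracted processed intensity of each spot, its raw mean and background intensity, and marks for outlier, saturated and well above background spots. The authors also deposited a table of intensity, which equals the processed signal divided by the median of each array. Here log2 processed intensity was set against the 75th percentile of 59305 non-control spots per array. Outlier spots (87 to 157 per array) were left out, no spot was saturated, and spots of a probe were averaged. A probe was above background when over 50% of its kept spots were, and a gene took its probe with the highest mean. Of the probes, 27503 were named by accession, 3554 by current symbol, 404 by an older symbol, and 24220 took the file's name. Probe positions are those of the files (mm9).

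Members of at least 2-fold difference or bound were named, with the 10 widest differences among other pathway genes measured on both arrays and not at a locally bright spot, and the 7 kinase inhibitors. Members and lists were chosen with earlier results of these data known. Alternatives changed the scaling, the background correction (normexp in limma 3.58.1, R 4.3.3), the filter, the fold limit, the probe rule, the spots and the source of values. Python 3.11.15 did the rest, and the scripts were tested on simulated data. Only 4 arrays limit the precision. A further list of cell type markers is not reported here.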

Additional observations from a re-analysis of the deposited data

How the results depend on the processing

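Of 819 values of single members under the alternatives, 650 lay within 0.0963 of the reported value on the log2 scale. That limit is the error between spots of probes above background, and dim probes vary more. Of the 209 values of members called 2-fold different none changed sign and 14 fell short of 2-fold, and among the other values 7 reached 2-fold and 42 took the other sign. For 15 against 0 weeks, the count of members at least 2-fold higher, 15, was 9 with normexp (offset 50) and 30 with no filter on dim probes; other settings gave 14 to 18. The count lower, 1, was 0 with normexp, 0 with locally bright spots left out, which removes Top2a, and 2 with no filter. The median of 1.36 relative to all genes was 0.72 with normexp, 1.19 with quantile normalization, 1.25 with the mean of all probes and 1.77 with no filter. Under normexp 6 of 13 mitotic and 0 of 12 replication members were at least 2-fold higher. For 10 against 0 weeks, the count higher, 4, was 1 with normexp, 11 with no filter and 8 at a limit of 1.5-fold, the count lower, 0, was 2 with no filter and 1 at 1.5-fold, and the median of 0.36 was 0.22 with normexp and 0.25 with no filter. For 5 against 0 weeks, the count higher, 1, was 0 with the array median, with normexp and with the deposited table, 8 with no filter and 5 at 1.5-fold, and the count lower, 0, was 2 with no filter and 2 at 1.5-fold. Apart from the removal of the Top2a spot, the cause of these shifts was not tested. Except for the 1.5-fold limit, the share of all genes called under each alternative was not computed. These counts alone therefore do not show whether the members stood out from all genes there. The fold against the median gene was chosen after seeing the data. The median of all genes at 15 weeks, -0.25, was -0.18 with the array median, -0.08 with quantile normalization and 0.26 with spike-in scaling. No paired analysis was possible because each time point has 1 array. Members not above background have only bounds, and 1 array per time point gives no error between animals.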
